A study of Mus musculus with 4 samples.

Results

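The yolk sac of the mouse embryo held a set of 7688 regions of transcription initiation that lay between protein-coding genes and had a peak in each yolk sac library but in no liver library. They were selected on those calls. Joining overlapping peaks of the 4 deposited lists gave 61095 regions, of which 20163, or 33.0% of all regions, were called in the yolk sac alone. Regions with no annotated transcript start within 500 bp are called distal here, and 17232 of the distal regions, or 40.3%, were yolk-sac-only. Distal yolk-sac-only regions with gaps of 12500 bp or less were joined into chains. The 7688 regions are those in chains of 1 to 4 whose midpoint lay in no protein-coding gene of the GENCODE vM21 annotation (mm10). Because calls in both tissues chose the regions, their absence from the liver lists is not a result, and no test between tissues is given. With 2 libraries against 2, an exact permutation test could not have gone below p = 0.333.

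The regions come from precision nuclear run-on sequencing (PRO-seq), which maps RNA polymerases engaged in transcription, applied to 2 liver and 2 yolk sac libraries of E14.5 embryos. The tissue of 6 embryos was pooled for each library. All embryos came from C57BL/6J mothers and fathers of mixed C57BL/6J and CAST/EiJ background, chosen to carry only CAST/EiJ alleles around Dlk1 and Gtl2 on chromosome 12, so both tissues share this cross. The study is about imprinting at the Dlk1-Dio3 cluster. The 2 libraries of a tissue may share embryos or litters, which the labels do not say.

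The liver lists numbered 24863 and 24333 peaks, those of yolk sac 50525 and 43055, and the number of reads behind them is unknown. Promoter peaks at marker genes bore on the tissue labels. Of 14 erythroid genes, 12 and 11 had a promoter peak in the liver lists against 3 and 3 in the yolk sac lists, and the fetal liver is a site of blood formation. Of 25 genes of the visceral endoderm, 24 and 24 had one in the yolk sac lists, among them the cubilin receptor genes Cubn and Amn, against 21 and 18 in the liver lists. Of 12 hepatocyte genes, 7 and 7 had one in the liver lists against 5 and 6 in the yolk sac lists, a small difference. Over all protein-coding genes a promoter peak was present at 56.1% and 57.9% in liver, and at 63.8% and 62.4% in the longer lists of yolk sac. In bulk tissue, fewer cells of a type and less transcription per cell cannot be told apart.

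Distal enhancers are stretches of DNA that bind transcription factors and raise transcription of genes on the same chromosome, sometimes across other genes. Active enhancers are transcribed from both strands into short, unstable RNAs, which run-on methods detect. The visceral yolk sac joins an absorptive endoderm, which takes up and secretes nutrients, iron and lipoproteins, to a mesoderm that forms vessels, mesenchyme and early blood cells. A dREG call marks transcription initiation at either a promoter or an enhancer, and nothing in the lists links a region to the gene it acts on.

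Sequences could be shown for regions that hold the start of a RefSeq transcript that is absent from GENCODE vM21 within 500 bp. There were 174 such regions, 2.26% of the 7688, and RefSeq classed 171 of these genes as long noncoding RNAs and 3 as protein-coding. The 6 best-ranked of them are printed to show what lies at the strongest such starts. Rank is set by the lower of a region's percentiles in the 2 yolk sac lists. Each sequence runs 5′ to 3′ on the strand of the transcript, from 250 bases before the start to 50 after it (RefSeq, GRCm38.p6). Capitals mark exact matches, on either strand, to 12 short motifs, each named after the factors that bind such letters. For GATA factors the letters are AGATAA, and for AP-1 they are TGANTCA. For TEAD they are GGAATG, for FOX factors TGTTTAC, for nuclear receptors TGACCTTTG, for HNF1 GTTAATNAT and for SOX factors AACAATG. For ETS factors they are CAGGAAGT, for E-box factors CAGATG, for KLF factors CCACACCC, for RUNX factors TGTGGTT, and for CTCF, as a part of its motif, CCANNAGG.
Gm40577, chr12:110418015-110418314 (-): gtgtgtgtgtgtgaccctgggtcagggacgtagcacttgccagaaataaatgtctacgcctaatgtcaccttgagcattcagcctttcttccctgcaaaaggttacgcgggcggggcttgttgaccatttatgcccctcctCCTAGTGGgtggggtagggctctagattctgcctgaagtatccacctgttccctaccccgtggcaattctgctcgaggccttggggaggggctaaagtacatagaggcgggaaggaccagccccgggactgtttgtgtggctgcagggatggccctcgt
Gm35170, chr11:117599625-117599924 (-): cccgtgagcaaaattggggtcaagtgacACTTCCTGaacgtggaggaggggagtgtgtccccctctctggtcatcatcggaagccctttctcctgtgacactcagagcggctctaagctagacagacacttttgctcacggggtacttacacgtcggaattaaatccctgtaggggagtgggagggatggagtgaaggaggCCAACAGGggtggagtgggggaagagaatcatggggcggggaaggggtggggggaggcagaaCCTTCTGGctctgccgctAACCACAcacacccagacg
Gm35756, chr3:51042789-51043088 (-): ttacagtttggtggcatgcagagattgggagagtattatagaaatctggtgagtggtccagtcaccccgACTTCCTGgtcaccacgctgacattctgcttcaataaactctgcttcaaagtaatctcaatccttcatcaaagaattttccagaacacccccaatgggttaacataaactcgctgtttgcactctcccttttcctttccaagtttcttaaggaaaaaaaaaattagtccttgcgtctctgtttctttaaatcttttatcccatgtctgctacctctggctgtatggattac
Gm46750, chr2:78387623-78387922 (+): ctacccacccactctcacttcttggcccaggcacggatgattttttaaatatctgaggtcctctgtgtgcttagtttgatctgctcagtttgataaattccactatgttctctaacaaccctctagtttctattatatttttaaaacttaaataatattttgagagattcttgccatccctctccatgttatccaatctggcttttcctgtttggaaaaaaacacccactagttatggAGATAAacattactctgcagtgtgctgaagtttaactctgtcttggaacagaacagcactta
Gm52290, chr17:21473564-21473863 (+): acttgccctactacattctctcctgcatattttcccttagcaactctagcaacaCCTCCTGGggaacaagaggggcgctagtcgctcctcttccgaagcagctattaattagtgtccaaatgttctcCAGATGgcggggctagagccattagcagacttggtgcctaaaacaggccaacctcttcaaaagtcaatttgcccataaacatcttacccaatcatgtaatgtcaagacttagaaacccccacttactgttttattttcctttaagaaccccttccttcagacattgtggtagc
Gm46929, chr5:148590623-148590922 (+): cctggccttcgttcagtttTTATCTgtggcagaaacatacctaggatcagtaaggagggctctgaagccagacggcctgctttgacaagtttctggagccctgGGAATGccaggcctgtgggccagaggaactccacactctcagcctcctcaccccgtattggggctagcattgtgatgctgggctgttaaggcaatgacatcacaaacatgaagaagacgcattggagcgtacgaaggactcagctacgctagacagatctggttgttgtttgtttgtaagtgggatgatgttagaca

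The 6 regions had percentiles between 95.5 and 98.6 in yolk sac replicate 1 and between 93.6 and 99.5 in replicate 2. The Gm40577 start lay in chr12:110417051-110418752, beyond Dio3, and was the best placed of them at rank 22. The nearest coding gene was Ppp2r5c, which encodes a regulatory subunit of protein phosphatase 2A, with its start 29218 bp away. The starts of Gm35170 and Gm35756 each held the ETS letters, those of Gm46750 and Gm46929 the GATA letters, and that of Gm46929 also the TEAD letters. A match is a description of the letters and shows no binding.

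Over the 174 windows, the ETS letters stood in 9.77% (95% Wilson interval 6.19 to 15.1), against 3.49% of the 11588 RefSeq windows at long noncoding RNA starts and 3.33% of all 32851 windows. The RUNX letters stood in 10.3% (6.64 to 15.8), against 6.29% and 5.27%. The GATA letters stood in 17.2% (12.4 to 23.5), against 14.0% and 11.2%. The AP-1 letters were in 12.6% (8.50 to 18.4), against 9.31% and 7.81%, but among the higher-scoring lists and in chains of 1 their share was between 6.52% and 7.86%. Those settings held fewer regions, and no intervals were made for their shares. The TEAD letters stood in 21.3% (15.8 to 27.9) against 16.6% of the noncoding windows, and the FOX letters in 6.90% (3.99 to 11.7) against 4.83%. Only for ETS and RUNX did the interval exclude the noncoding share. The E-box, CTCF, KLF, SOX, HNF1 and nuclear receptor letters had intervals that held the noncoding share. The windows in the regions had a median GC content of 49.2%, against 48.3% at noncoding starts and 52.7% over all windows. The intervals cover counting error only, 12 motifs were compared, and no test was made. All 174 windows lie at called regions, whereas the comparison windows were taken whether or not their starts had a peak. The part of this difference in the shares was not tested. Other settings were run for the AP-1 and GATA letters only, so how the ETS and RUNX shares depend on them is unknown.

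The deposited dREG score ranked the regions around the middle of the yolk sac lists, with a tail of strong peaks. A score has no unit and was not scaled between libraries, so ranks within a list are given. The median percentile was 52.0 in yolk sac replicate 1 and 39.4 in replicate 2, or 45.7 ± 8.89 (SD, n = 2). Replicate 2 placed the regions lower as a whole, in a list that is also shorter. Regions that met the same call rule inside protein-coding genes had medians of 42.3 and 34.5, and clustered ones, in chains of 5 or more, 48.0 and 39.8. Their means were 38.4 ± 5.49 and 43.9 ± 5.79 (SD, n = 2). The intergenic mean of 45.7 differed from both by less than its own SD of 8.89, but from the intragenic mean by more than 5.49. All sets were ranked in the same 2 libraries, so these SDs do not measure the spread of a difference between sets. Within each library the intergenic regions stood above the intragenic regions. Against the clustered regions the order was not the same in the 2 libraries.

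**Figure D1:**
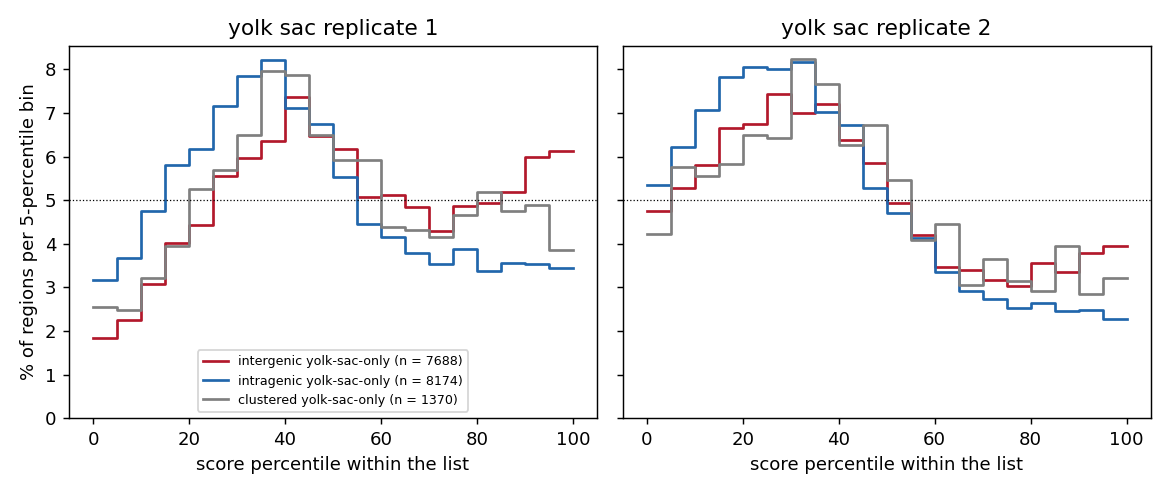
Share of regions (y axis, percent per bin of 5 percentiles) against the percentile of their score in the list of yolk sac replicate 1 (left) and replicate 2 (right), for the 7688 intergenic, 8174 intragenic and 1370 clustered yolk-sac-only regions. The dotted line marks an even spread over the list, the intergenic line lies furthest to the right in replicate 1 with a median of 52.0, and all 3 lines peak below the middle in replicate 2.

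The scores of the 7688 regions in the 2 yolk sac lists had a Spearman correlation of 0.656 and a Pearson correlation of 0.646 across regions, which share libraries and are not replicates. Among the 24333 highest scores of each list, the length of the shortest list, 2712 regions (35.3%) were present in both, 1857 (24.2%) in 1 and 3119 (40.6%) in neither. The peak was wider in replicate 1 at 5522 regions (71.8%) and in replicate 2 at 1526, and 298 had identical ends in both. The median width was 852 and 652 bp. The centres of the paired peaks lay a median of 50 bp apart, and more than 1 peak fell in a region 18 times in replicate 1 and 65 times in replicate 2. The merged regions were 102 to 4352 bp long with a median of 852 bp, and they covered 7.36 Mb. They held 15.3% and 18.01% of all peaks of the 2 yolk sac lists.

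The rule has 2 thresholds at which regions just inside and outside can be compared. The 32 regions with a start 501 to 600 bp away had median percentiles of 47.2 and 34.2 in the 2 lists, and the 25 left out with a start 401 to 500 bp away had 52.8 and 41.4. The 532 regions in chains of 4 had 51.5 and 43.0, and the 324 intergenic regions left out in chains of 5 had 58.6 and 42.5. Most of the set stood alone: 4084 regions (53.1%) were chains of 1, 2090 were in chains of 2 and 982 in chains of 3.

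The regions lay far from coding genes. The distance from the midpoint to the nearest protein-coding start had a median of 31824 bp, with quartiles of 12468 and 81808 bp. A distance over 100 kb was found for 1560 regions, or 20.3% (95% Wilson interval 19.4 to 21.2). It was found for 3.93% of intragenic yolk-sac-only regions, 8.18% of clustered ones and 11.7% (10.1 to 13.4) of the 1415 liver-only regions chosen by the same steps. Lying outside genes is part of the rule, so the contrast with intragenic regions follows in part from it, whereas the liver-only set obeyed the same rule. Using only the 24333 highest-scoring peaks of each list left 3024 regions, with 17.0% over 100 kb, against 9.90% of liver-only regions. The region lay upstream of that start in 64.1% of cases, and in 67.6% in the liver-only set. Positions inside genes, which lie downstream of a start, had been removed from both sets.

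**Figure D2:**
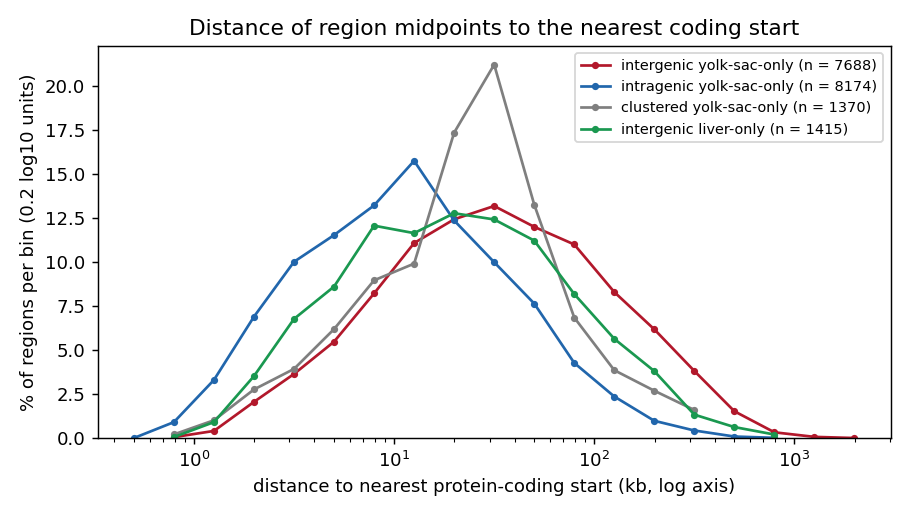
Share of regions (y axis, percent per bin of 0.2 log10 units) against the distance from the midpoint to the nearest protein-coding start (x axis, kb, log axis) for 4 sets of distal regions. The line of the intergenic yolk-sac-only regions is the highest beyond 100 kb, where 20.3% of them lie, against 11.7% of the intergenic liver-only regions.

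The 3 regions farthest from any coding start stood in gene deserts. The region chr8:51707951-51709402 lay 1803050 bp from the start of Aga, which encodes a lysosomal enzyme, with percentiles of 45.4 and 35.9. The region chr12:6576651-6577852 lay 1201570 bp from Klhl29 (63.4 and 29.5). The region chr10:16545051-16545852 lay 1177766 bp from Cited2 (54.7 and 33.9). None of the 3 stood above 50 in both lists.

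By distance, the median score rank was highest neither beside genes nor in the remotest class. The 1532 regions within 10 kb of a coding start had median percentiles of 43.1 and 35.1. Between 25 and 50 kb, 1494 regions had 57.8 and 43.8, the highest of the 6 distance classes in both lists. Beyond 250 kb, 447 regions had 48.3 and 35.7.

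The surroundings of the regions were not empty of calls in liver. The nearest region called in any liver list was a median of 19638 bp away, with quartiles of 7119 and 60019 bp, and was within 10 kb for 32.7% of the regions. The nearest promoter region called in all 4 lists was a median of 46038 bp away. A distal region called in all 4 lists was 121288 bp away, and a liver-only distal region 218238 bp. A liver-only distal region lay within 10 kb of 3.76% of the regions, against 4.56% of intragenic and 2.92% of clustered yolk-sac-only regions. A region called in any liver list lay within 10 kb of 35.4% of the intragenic and 32.0% of the clustered ones.

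The nearest coding genes were mostly active in both tissues. A promoter peak is a peak within 500 bp of a start of the gene. For 73.1% of the regions the nearest coding gene had a promoter peak in all 4 lists, a pattern of 53.8% of all 21951 protein-coding genes. This pattern held for 75.9% of intragenic and 79.9% of clustered yolk-sac-only regions, and 75.7% of liver-only intergenic ones. The nearest promoter was yolk-sac-only for 530 regions, or 6.89% (6.35 to 7.48), against 5.25% of all coding genes. That share was 3.18% (2.39 to 4.23) at the liver-only intergenic regions. At intragenic and clustered yolk-sac-only regions it was 7.98% and 7.23%, so it was not particular to the intergenic set. The nearest promoter was liver-only for 0.611% of the regions, against 1.01% of coding genes, and absent from all lists for 12.9%. Promoter calls belong to the contrast that chose the regions, so these shares are descriptions. The 6.89% depended on the lists used, and so did the share over all coding genes, since leaving out a list loosens the rule for both. Without liver replicate 2 the 2 shares were 10.5% and 7.48%, and without yolk sac replicate 2 they were 7.62% and 6.59%. Among the higher-scoring 50% of peaks the share at the regions was 13.0%, against 8.84% of coding genes, and with lists of equal length 4.63%, against 2.61%.

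The share of nearest genes with a yolk-sac-only promoter was lower at greater distance. It was 8.94% within 10 kb, 8.19% from 10 to 25 kb and 6.76% from 25 to 50 kb. It was then 6.58% up to 100 kb, 4.31% (48 of 1113 regions) up to 250 kb and 2.46% (11 of 447) beyond. Regions that share a nearest gene are not independent. Intragenic yolk-sac-only regions showed no such fall, with 7.77% within 10 kb and 10.5% from 100 to 250 kb. Clustered ones had 10.1% within 10 kb, 6.68% from 10 to 25 kb, 6.30% from 25 to 50 kb and 5.88% up to 100 kb. They then had 7.78% up to 250 kb and 0% of 22 regions beyond. Lower shares away from the start were thus not particular to the intergenic set.

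Seen from the genes, 9444 protein-coding genes, or 43.0%, had at least 1 of the regions within 100 kb of a start. The share was 53.9% (51.0 to 56.7) for the 1153 genes with a yolk-sac-only promoter and 53.7% (52.8 to 54.6) for the 11805 genes with a promoter peak in all lists. For the 222 genes with a liver-only promoter it was 50% (43.5 to 56.5), and for those with no promoter peak it was 23.9%. The first 3 shares differed by less than their counting intervals, which overlapped. The liver-only intergenic regions lay within 100 kb of 26.6% (21.2 to 32.8) of the liver-only genes and 14.9% (13.0 to 17.1) of the yolk-sac-only genes. With lists of equal length the shares near the regions were 31.8% of yolk-sac-only genes, 30.0% of shared genes and 22.7% of liver-only genes, against 23.2% of all coding genes.

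Lists of genes for the cell types of the yolk sac and its neighbours were read beside these shares of 43.0% with all peaks and 23.2% with lists of equal length. Several lists hold mostly genes with promoter peaks in all 4 lists, of which 53.7% had a region within 100 kb, so the counts are descriptions of the lists. Of 25 genes of the visceral endoderm and of nutrient transport, 19 (76.0%) had at least 1 within 100 kb, and with lists of equal length 12 did. Slc40a1, which encodes the iron exporter ferroportin, had 7 regions between 28757 and 96532 bp from a start. Their percentiles ran from 32.3 to 74.7 in replicate 1 and from 26.1 to 78.1 in replicate 2, so none was near the top of a list. Krt8 and Krt18, neighbouring genes for the keratin pair of simple epithelia, shared 6 regions. The best of them, chr15:102034051-102035902, lay 6797 bp from the Krt18 start, and percentiles among the 6 reached 94.98 and 94.91. Their promoters, like that of Slc40a1, had peaks in all 4 lists. Afp, Apob and Cdh1, for alpha-fetoprotein, the apolipoprotein of low-density particles and E-cadherin, had 4 each. Cubn, with a yolk-sac-only promoter, had 1, and Amn, the other yolk-sac-only receptor subunit, had none.

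Of 20 endoderm transcription factor genes, 16 (80.0%) had a region within 100 kb, and with lists of equal length 14 did. Maf, for a basic leucine zipper factor, had 8, from 3983 to 95044 bp away. The forkhead gene Foxa2 had 7, with a highest percentile of 96.2 in replicate 1 and 68.8 in replicate 2. The epithelial ETS-family gene Elf3 had 6, led by chr1:135169051-135170752 at 98.3 and 96.7, whose nearest coding start was that of another gene, Gpr37l1. The median of Elf3's regions was 76.3 and 68.9, above the median of the whole set in both lists. Klf5 had 5, and Gata6 and Cebpb had 4 each. Sox7, Sox17, Prox1 and Nr1h4 had none. Of these 20 genes 19 had a promoter peak in all 4 lists and 1, Tfap2a, was yolk-sac-only.

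**Figure D3:**
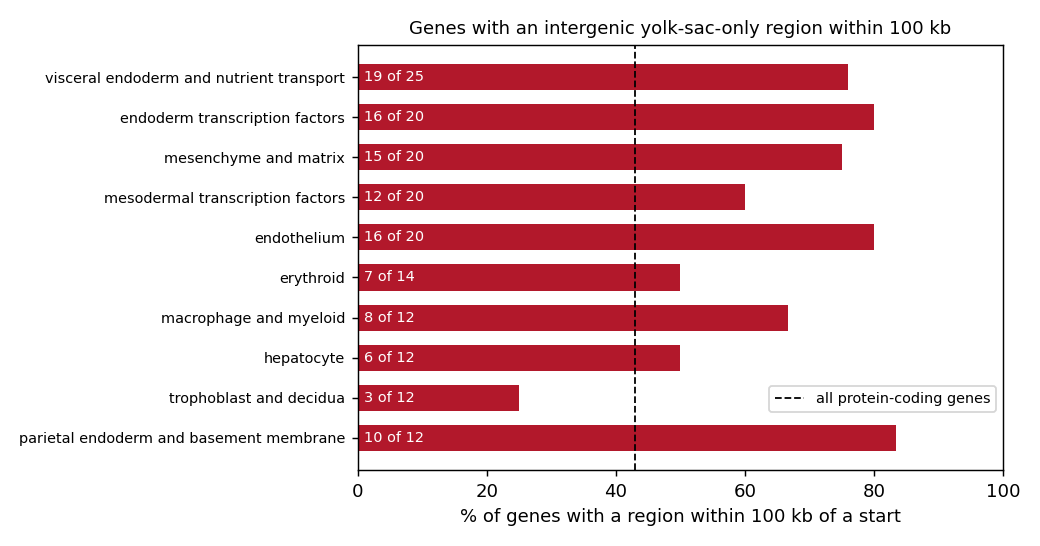
Percentage of the genes of each of 10 lists (bars, with counts) that had at least 1 intergenic yolk-sac-only region within 100 kb of a start, with the share over all protein-coding genes as a dashed line. The bars of the endoderm, endothelial, mesenchymal, and parietal endoderm and basement membrane lists stand at 75% or more. The erythroid and hepatocyte bars stand at 50%, and the trophoblast bar at 25%, below the line at 43.0%.

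Basement membrane proteins are made in bulk by the parietal endoderm of the embryo and also by other tissues. Of 12 genes listed for the parietal endoderm and basement membrane, 10 (83.3%) had a region within 100 kb, and 7 with lists of equal length. Not all of the 12 encode basement membrane proteins, and Thbd, Plat, Srgn and Pdpn are also listed. Lamb1, for a laminin chain, had 6 with median percentiles of 77.9 and 65.4. Nid1, for nidogen, which joins laminin to collagen IV, had 5 with medians of 40.9 and 19.9, and Col4a1, for a collagen IV chain, had 3.

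Of 20 mesenchyme and matrix genes 15 (75%) had a region within 100 kb, and 11 with lists of equal length. The type I collagen gene Col1a2 had 6, with percentiles up to 66.3 and 59.1. Postn, for the matrix protein periostin, had 5, and Col6a3, for a type VI collagen chain, had 4 in 1 chain, with best values of 98.3 and 96.5. Of 20 genes listed as mesodermal transcription factors 12 (60.0%) had one, and 7 with lists of equal length. This list also holds Bmp4, a ligand gene, with 3 regions. Hand2, Tcf21 and Pitx1, which encode factors of heart, mesothelial and limb mesoderm, had 4 each. The promoter of Pitx1 was yolk-sac-only. Hand1, a gene of extraembryonic mesoderm whose promoter was also yolk-sac-only, had 1, and Nr2f1 with the same promoter pattern had none.

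Of 20 endothelial genes 16 (80.0%) had a region within 100 kb, and 12 with lists of equal length. Ets1, Fli1 and Erg, which encode ETS-family factors of endothelium, had 5 each. Ets1 and Fli1 are neighbours and shared theirs, led by chr9:32562201-32563102, which lay 19791 bp from Fli1. Erg had all 5 between 72959 and 99459 bp away, with percentiles from 2.44 to 99.7 in replicate 1 and from 1.03 to 97.3 in replicate 2. The best ranked of them, chr16:95658751-95660352, had its nearest coding start at another gene, Ets2, 42523 bp away.

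Of 12 macrophage and myeloid genes 8 (66.7%) had a region within 100 kb, and 4 with lists of equal length. Adgre1 (F4/80), Csf1r and Itgam (CD11b) had 3 each. Of 14 erythroid genes 7 (50%) had one, and 2 with lists of equal length. Nfe2, for a subunit of an erythroid and megakaryocytic factor, had 3, from 73563 to 98938 bp away. The best ranked of them had its nearest coding start at another gene, Smug1. The alpha-globin gene Hba-a1 had 1, 57241 bp away, whose nearest coding start was that of Sh3pxd2b at 6768 bp. The share of 50% is close to the 43.0% of all coding genes, and 8 of the 14 promoters were liver-only.

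Of 12 hepatocyte genes 6 (50%) had a region within 100 kb, and 4 with lists of equal length. Alb, for albumin, had 7, with medians of 45.3 and 38.1 and the best region, chr5:90402751-90403802, at 90.8 and 90.2. Its promoter had peaks in all 4 lists. Afp lies next to Alb and had the same best region, so a region can count for genes of more than 1 list. Pck1, for the gluconeogenic enzyme PEPCK, had 5 and a yolk-sac-only promoter. The complement gene C3, with a liver-only promoter, had 2, of which the better, chr17:57201751-57203052, stood at 91.6 and 94.5. The nearest coding start to that region was at another gene, Tnfsf14, 8225 bp away. Trophoblast and decidua genes served as markers of neighbouring tissue that a dissection could carry along. Only 3 of 12 (25%) had a region within 100 kb, and 3 with lists of equal length. Syna, for syncytin A, had 3, the trophoblast factor gene Gcm1 had 2 and Krt7 had 1. Of the 12 promoters, 3 (25%), those of Krt7, Cryab and Eomes, were yolk-sac-only, against 5.25% of all coding genes. A further 8, among them those of Syna and Gcm1, had no peak in any list. The part of such tissue in the regions was not tested.

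The regions were spread over many genes. A total of 3855 coding genes were nearest to at least 1 region. Of these, 2217 had 1, 1360 had 2 to 4, 238 had 5 to 9, and 40 had 10 or more, which together took 524 regions.

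Maf was nearest to the largest number, 30 regions in 19 chains. They ran from 3983 to 389308 bp from its start, 14 upstream and 16 downstream, in an interval of 1793 kb between its flanking coding genes. Their percentiles ran from 6.12 to 92.8 in replicate 1 and from 3.51 to 93.6 in replicate 2, with medians of 46.3 and 30.8, below those of the whole set. The best ranked was chr8:115718751-115720352, 11758 bp upstream. The Maf promoter had a peak in all 4 lists.

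**Figure D4:**
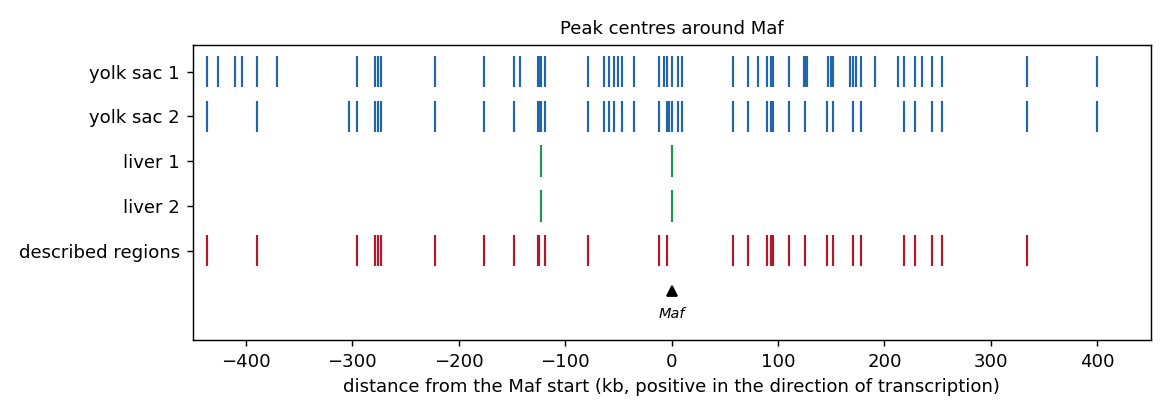
Peak centres of each of the 4 lists (rows of ticks) by distance from the Maf start (x axis, kb, positive in the direction of transcription), with the intergenic yolk-sac-only regions in the bottom row. Within the span drawn, the yolk sac rows hold peaks on both sides throughout, and each liver row holds a peak at the Maf start and 1 upstream.

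Irs2, for an adaptor of the insulin receptor, was nearest to 22 regions, of which 13 lay within 100 kb, the largest number within 100 kb of any coding gene. Its best region, chr8:10977501-10978902, lay 30256 bp from the start and stood at 99.7 and 99.0. Adgrl2, an adhesion receptor gene, was nearest to 21 over an interval of 4494 kb. Bcor and Rybp, both for proteins of Polycomb repressive complex 1, were nearest to 19 and 17, and Ankrd50 to 17. Gadd45g, a growth arrest gene, was nearest to 15, all downstream of it, and Cited2, for a CBP/p300-binding regulator, to 14, all upstream. All 8 of these genes had a promoter peak in all 4 lists. The median percentiles of their regions ranged from 46.3 to 65.1 in replicate 1 and from 23.9 to 59.6 in replicate 2. Long flanking intervals leave more room for a gene to be the nearest, and the part of interval length in these counts was not tested.

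The 8 leading regions by rank all stood above 99.4 in both yolk sac lists, and none of their nearest genes was among the 8 just named. The first, chr19:9924101-9925402, stood at 99.9 and 99.9, 25201 bp upstream of Incenp, a gene of the chromosomal passenger complex. The next was chr15:83280851-83282052, 23889 bp downstream of the start of Arfgap3, for an Arf GTPase-activating protein. It was followed by chr13:41583451-41584252, 22055 bp upstream of Tmem170b. The fourth, chr10:17760451-17761702, lay 35149 bp upstream of Txlnb, the only nearest gene among the 8 with a yolk-sac-only promoter. The others were chr6:87126751-87127852 near D6Ertd527e, chr6:35168651-35169952 near the nucleoporin gene Nup205, chr10:70389451-70390702 near Fam13c and chr1:155121851-155122952 near Mr1. Their distances ran from 8119 bp at Nup205 to 50404 bp at Fam13c. In replicate 1 the 8 peaks were 802 to 1302 bp wide, and 5 of the 8 promoters nearest to them had a peak in all 4 lists.

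The Dlk1-Dio3 interval, with flanks of 100 kb before Dlk1 and after Dio3 (chr12:109352823-110381097), held 15 of the regions among its 18 yolk-sac-only regions. Dlk1 encodes a Notch-like membrane protein and Dio3 a thyroid hormone deiodinase, and Meg3, Rian and Mirg are noncoding RNAs of the other parental copy. The 15 regions fell in 3 groups: 5 upstream of Dlk1, 4 between Dlk1 and Meg3, and 6 between Mirg and Dio3. Of these, 6 stood above the 50th percentile of both yolk sac lists.

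Upstream of Dlk1, 4 regions formed a chain. The first, chr12:109397251-109397952, stood at 52.6 and 97.5, a gap between replicates wider than at any other region of the interval. The next 2, chr12:109398701-109400152 and chr12:109410601-109413252, stood at 68.7 and 50.7 and at 56.3 and 47.8. The nearest of the chain, chr12:109417151-109418652, lay 34921 bp from the Dlk1 start and stood at 89.8 and 71.1. A lone region only 6196 bp upstream of Dlk1, chr12:109446301-109446952, was weak in both lists at 28.7 and 15.3.

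Between Dlk1 and Meg3, the interval that holds the imprinting control region, the 4 regions were all below the 50th percentile of replicate 1. The region chr12:109494801-109495702 stood at 37.3 and 37.3, with a peak of 902 bp in replicate 1 and 202 bp in replicate 2. The other 3 formed a chain. They were chr12:109512251-109513702 at 38.1 and 61.7, chr12:109525651-109526202 at 34.1 and 50.1, and chr12:109536501-109536952 at 21.6 and 37.3. All 3 ranked higher in replicate 2.

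The 6 regions between Mirg and Dio3 held the best-ranked of the interval. The region chr12:110153951-110157002, a peak of 3052 and 2852 bp, stood at 87.9 and 85.1 and lay 123591 bp upstream of Dio3. The region chr12:110214101-110216152, at 81.1 and 82.7, was 63941 bp from Dio3. Beside it in 1 chain lay chr12:110200151-110201602 at 67.0 and 50.7, chr12:110203001-110204302 at 32.5 and 20.9, and chr12:110206651-110208052 at 10.4 and 38.1. The remaining region, chr12:110027501-110029702, stood at 71.9 and 43.5. Dlk1 had 9 of the regions within 100 kb of a start and Dio3 had 4. Dlk1 was 1 of 28 coding genes with at least that many, and the highest count was 13.

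**Figure D5:**
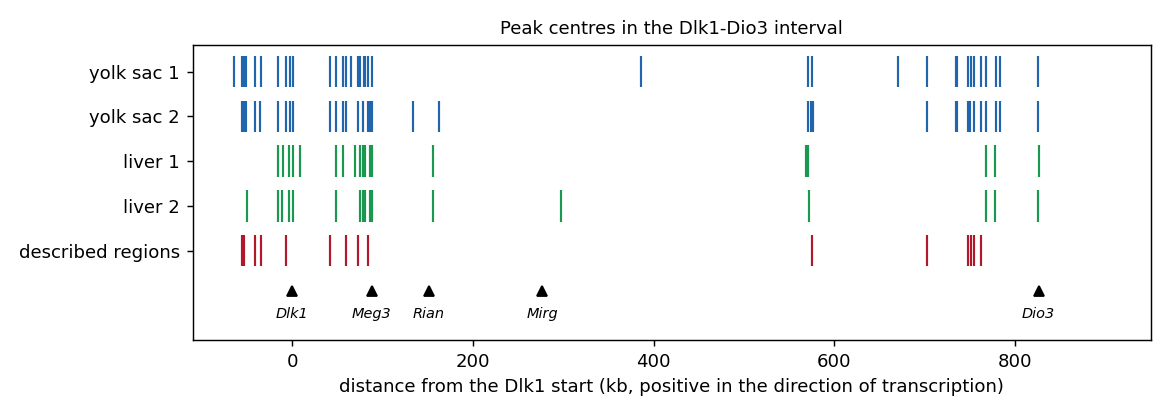
Peak centres of each of the 4 lists (rows of ticks) by distance from the Dlk1 start (x axis, kb, positive in the direction of transcription), with the starts of the genes as triangles and, in the bottom row, the 15 intergenic yolk-sac-only regions of the interval that reaches 100 kb beyond Dlk1 and Dio3. Within that interval the regions stand in 3 groups, 5 upstream of Dlk1, 4 between Dlk1 and Meg3 and 6 between Mirg and Dio3.

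Noncoding genes overlapped a part of the set, since the rule left out protein-coding genes only. The midpoints of 1062 regions (13.8%) lay in 749 noncoding genes. Intergenic liver-only regions lay in such genes in 14.6% of cases. The annotation classed the gene as a lincRNA for 690 of the 1062 regions, as antisense for 191 and as a processed transcript for 134. Of the 749 genes, 102 (13.6%) had a yolk-sac-only promoter peak, against 2.89% of all 33499 noncoding genes, many of which had no peak in any list. No promoter peak was found at 390 of the 749. Pvt1, the long noncoding RNA gene beside Myc, held 7 of the regions over 340 kb, Zmiz1os1 held 7 and Lncpint 5, and their promoters had peaks in all 4 lists. These 3 genes were chosen after their values were seen.

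The 174 regions that held a RefSeq start ranked higher than the rest. Their median percentiles were 57.9 and 49.2, against 51.8 and 39.2 for the regions without one. Their peaks were also wider in both lists, at 1077 and 902 bp against 852 and 652 bp.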

How the data were processed

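PRO-seq peak lists of 2 liver and 2 yolk sac libraries were used, 1 list per library, each with the authors' deposited dREG score per peak, a number without a unit that was used to rank peaks within a list. The submitters' processing notes name Bowtie2, bedtools and mm10. Their roles and versions, the dREG version and the filters are not given in the sources used here. The lists hold no counts, so depth is unknown. Groups follow the sample titles.

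Peaks were merged, classed and chained with Python 3.11.15, numpy 2.4.6 and pandas 2.3.3 against GENCODE vM21, and correlations used scipy 1.17.1. The class rule, checked on simulated lists, returned 11936 of 11936 simulated regions in their class. A region takes the best score of its peaks in each list. The percentile is the rank within the whole list. Distances run from the region midpoint. Intervals are 95% Wilson intervals. All coordinates are 1-based.

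The regions and gene lists were chosen with earlier results of these data known. Named are the 8 leading regions, the 3 farthest from a coding start, the 8 coding genes nearest to most regions, the 3 genes of each list with most regions within 100 kb, and all regions around Dlk1 and Dio3. Some genes that this rule or the lists hold are not reported here. Predicted and clone names, and chromosomes 18 and Y, were skipped in choosing leading regions and genes. Other genes of a list are named to complete its account and were chosen after their values were seen. No genome sequence was used here, so repeats and windows of 500 bp around the regions were not analysed. Motif letters were instead sought in 300-base RefSeq windows, 1 per region, a choice made after seeing which reference was given.

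Alternatives were lists limited to their 24333 best-scoring peaks, the higher-scoring 50%, other limits for merging, starts, chains and distance, chains of 1, regions in no annotated gene, and leaving out each library.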

Additional observations from a re-analysis of the deposited data

How the results depend on the processing

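No test was made, so a count is taken as moved when it changed by over 1.5 times, a share when it left its 95% Wilson interval, and the median percentile when it moved by more than the SD between replicates. The number of regions, 7688, was 3024 with lists limited to their 24333 best-scoring peaks, 3718 in the higher-scoring 50% and 4084 in chains of 1. In the same 3 settings the share over 100 kb from a coding start, 20.3%, was 17.0%, 14.9% and 22.8%. The share of windows with AP-1 letters, 12.6%, was 7.37%, 7.86% and 6.52% in them. These AP-1 shares come from fewer regions and have no intervals of their own, so they do not show that the share differs. Among regions in no annotated gene, 19.2% lay over 100 kb away. With the limit at 50 kb the share was 37.3%, and at 200 kb it was 8.95%, by construction. The share whose nearest coding gene had a yolk-sac-only promoter, 6.89%, was 4.63% with lists of equal length and 13.0% in the higher-scoring 50%, where the share over all coding genes, 5.25%, was 2.61% and 8.84%. It was from 7.16% to 10.5% when 1 library was left out. The highest of these was without liver replicate 2. In these settings the share over all coding genes was from 5.67% to 7.48%. The median percentile, 45.7, was 77.2 and 80.0 in the 2 score-filtered settings, by construction, and 34.9 to 46.5 when 1 library was left out. The cause of the other moves was not tested. The share of windows with GATA letters did not move under any of the 13 alternatives run. Merging at 500 bp, other start limits and other chain gaps moved none of the 6 values. No paired analysis was possible because none of the results comes from a test. Shares of repeats and other sequence windows were not run, since no genome sequence was used here. Depth is unknown, so a region absent from the shorter liver lists may have been below detection there.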

Other observations

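The regions were unevenly spread over the chromosomes. Per Mb outside protein-coding genes, chromosome 11 held 7.78 of them and chromosome 19 held 7.21, while the X chromosome held 1.74, with 214 regions in all. The lowest autosome was chromosome 14 at 4.03. As a share, the X chromosome held 2.78% of the regions, and 2.38% and 2.35% of all peaks of the 2 yolk sac lists. Chromosome 11 held 6.22% of the regions against 7.40% and 7.57% of the peaks, and chromosome 19 held 2.80% against 3.32% and 3.34%. Beside all peaks, the regions were thus not few on the X chromosome and not many on chromosomes 11 and 19. The X chromosome was also low in the other distal sets, with 129 intragenic yolk-sac-only regions and 76 distal regions called in all 4 lists, against 508 and 227 on chromosome 1. The sex of the pooled embryos is not given in the labels, and its part in these counts was not tested.

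Noncoding genes with several of the regions had mixed promoter calls. The locus 2610307P16Rik held 8 regions over 426 kb with no promoter peak in any list. Gm5535 and Gm31718 held 7 each, over 109 and 95.6 kb, and had yolk-sac-only promoters. Gm14005 held 7 over 324 kb with a promoter peak in all 4 lists. These genes were chosen after their values were seen.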
